A study of Mus musculus with 2 samples.

Results

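Group 2 innate lymphoid cells (ILC2s) are kept apart from other lymphocytes by a set of transcription factors, and the genes described here were 10 of them, namely *Gata3*, *Rora*, *Id2*, *Bcl11b*, *Zbtb16*, *Zbtb7a*, *Ets1*, *Gfi1*, *Tox* and *Bach2*. They were taken by symbol from the 31053 genes of the count tables, and each symbol matched 1 gene. On GRCm38 they lie on chromosomes 2 (*Gata3*), 4 (*Tox* and *Bach2*), 5 (*Gfi1*), 9 (*Rora*, *Zbtb16* and *Ets1*), 10 (*Zbtb7a*) and 12 (*Id2* and *Bcl11b*). Their levels were followed in ILC2, T, NK, B, myeloid and proximal tubule cells. The data were single-cell RNA sequencing of the kidneys of MRL-lpr mice, which carry a defective Fas gene and develop lupus-like nephritis as they age. 1 library came from pooled kidneys of young mice and 1 from pooled kidneys of old mice, with no other genotype or treatment. The labels give the age only in these words. Leukocytes were concentrated on a density gradient, ILCs were then enriched with magnetic beads, and viable cells were sorted, so the share of a cell type is not its frequency in the kidney. The study's methods speak of female mice, which the libraries went against. In the young library 50.8% of cells, and in the old library 40.6%, held unique molecular identifiers (UMIs) of 4 Y-linked genes and none of *Xist*, which is transcribed from the inactive X chromosome, while 14.6% and 29.1% held *Xist* without Y-linked UMIs. The number of mice of either sex was not given in the sources used here.

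With 1 library per age, no test of a difference between ages or cell types over mice could be made, and age cannot be told apart from library. Every interval below is an exact 95% interval that covers counting error only. A minimum of 200 genes and a ceiling of 20% mitochondrial UMIs left 11429 young and 10232 old cells with a median of 7881 and 6933 UMIs, and 26 barcodes occurred in both libraries. The level of a gene in a cell type is given as CPM, its UMIs summed over the cells and scaled to the total UMIs of those cells. A cell type was gated by marker genes that were not among the 10 factors, and cells in more than 1 gate were left out. The ILC2 gate asked for UMIs of at least 3 of 8 genes (*Il1rl1*, *Il17rb*, *Il2ra*, *Il7r*, *Klrg1*, *Areg*, *Il5* and *Il13*) and none of the CD3 genes or *Ncr1*, and held 1300 young and 297 old cells. Of the genes outside the gate set as a check, *Icos* was found in 78.7% and 76.8% and *Cxcr6* in 79.5% and 73.1% of these cells. *Cd69* was found in 87.4% and 81.1%, *Hes1* in 41.3% and 40.7% and *Ccr9* in 31.9% and 50.8%. The share of T cells with these genes was not computed. T cells (at least 2 of *Cd3d*, *Cd3e* and *Cd3g*) numbered 659 and 4309, NK cells 165 and 210, B cells 377 and 187, myeloid cells 351 and 407, and proximal tubule cells 6301 and 3229. Of ILC2s, 79.4% in the young and 50.5% in the old library carried UMIs of the 8 proximal tubule gate genes, summing to 1651 and 890 CPM, and the part of this RNA in the levels below was not tested except where cells without it are named.

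ILC2s arise from lymphoid progenitors that lose the potential to become T or B cells. Id2 binds E proteins and blocks their activity, which all ILCs need, and Tox and Zbtb16 (PLZF) act in early ILC precursors. Gata3, the nuclear receptor Rorα encoded by *Rora*, Gfi1 and Bcl11b then establish or hold the ILC2 program, in which Gata3 drives the type 2 cytokine genes. Ets1 supports several lymphocyte lineages, Zbtb7a (LRF) is a zinc finger repressor used in many blood lineages, and Bach2 restrains effector genes in T and B cells.

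The 4 factors that were at least 2-fold higher in ILC2s than in T cells in both libraries were *Gata3*, *Rora*, *Id2* and *Gfi1*, and their promoters are shown as the regulatory sequence nearest to this difference. Each window runs from 250 bases before to 50 bases after a RefSeq transcription start on GRCm38.p6, in the direction of the gene. Capitals mark CAGNTG, the E-box form bound by the E proteins that Id2 blocks, and GATAA, a core form of the GATA site, each searched on both strands (CANCTG and TTATC on the other). *Gata3* lies on the minus strand at chr2:9878551-9878850, *Rora* on the plus strand at chr9:68653536-68653835, *Id2* on the minus strand at chr12:25096043-25096342, and the first of the windows of *Gfi1* on the minus strand at chr5:107725756-107726055.
Gata3: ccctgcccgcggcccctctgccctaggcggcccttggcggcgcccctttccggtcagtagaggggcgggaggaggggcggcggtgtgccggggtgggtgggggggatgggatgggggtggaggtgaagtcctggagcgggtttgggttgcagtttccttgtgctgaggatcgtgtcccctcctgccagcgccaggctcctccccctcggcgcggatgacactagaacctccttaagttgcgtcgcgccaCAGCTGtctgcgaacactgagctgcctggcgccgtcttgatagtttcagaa
Rora: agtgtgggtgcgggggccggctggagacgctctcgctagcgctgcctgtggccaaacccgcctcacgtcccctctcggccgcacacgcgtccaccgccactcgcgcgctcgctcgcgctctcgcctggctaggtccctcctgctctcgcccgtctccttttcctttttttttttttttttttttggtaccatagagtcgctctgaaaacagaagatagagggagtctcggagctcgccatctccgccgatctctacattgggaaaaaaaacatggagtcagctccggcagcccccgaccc
Id2: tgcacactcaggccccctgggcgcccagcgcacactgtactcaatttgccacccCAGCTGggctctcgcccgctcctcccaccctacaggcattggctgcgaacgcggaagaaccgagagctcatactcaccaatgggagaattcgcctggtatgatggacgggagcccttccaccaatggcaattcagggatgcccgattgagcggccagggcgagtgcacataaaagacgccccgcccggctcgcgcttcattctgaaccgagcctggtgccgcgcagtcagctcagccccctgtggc
Gfi1: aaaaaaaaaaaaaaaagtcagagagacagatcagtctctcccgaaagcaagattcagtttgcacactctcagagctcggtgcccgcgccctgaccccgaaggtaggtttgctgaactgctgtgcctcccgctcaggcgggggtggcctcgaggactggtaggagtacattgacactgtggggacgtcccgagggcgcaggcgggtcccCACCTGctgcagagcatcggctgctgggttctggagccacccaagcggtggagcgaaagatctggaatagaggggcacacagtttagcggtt
*Gata3*, *Id2* and *Gfi1* each held 1 E-box of this form and no GATAA, and *Rora* held neither. RefSeq windows matched 7 of the 10 factors, with 8 windows in all. Of these 8, 3 held CAGNTG, 2 held GATAA (those of *Bach2* and *Zbtb7a*) and 3 held neither, while 51.4% and 25.4% of all 32851 promoter windows held CAGNTG and GATAA. A match of letters describes the sequence and does not show binding.

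*Gata3* separated ILC2s from every other class. Its level was 844 CPM (825–863) in young and 1278 CPM (1226–1331) in old ILC2s, against 122 (113–132) and 84.7 (81.5–88.1) in T cells and 124 (103–147) and 79.5 (66.2–94.6) in NK cells. T and NK cells could not be ordered in either library, since the interval of their ratio held 0 on the log2 scale. B cells had 4 and 3 *Gata3* UMIs in all and myeloid cells 2 and 1. A *Gata3* UMI was found in 97.1% of young ILC2s (median 5336 UMIs) and in 1.06% of young proximal tubule cells, which were deeper (median 14331 UMIs). The ILC2 over T log2 ratio was 2.78 (2.67–2.91) in the young and 3.92 (3.83–4.0) in the old library.

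*Rora* had the same leading class with wider expression elsewhere. ILC2s had 1206 CPM (1183–1229) young and 1376 CPM (1323–1432) old, NK cells 366 (329–405) and 135 (117–154), and T cells 249 (235–263) and 106 (103–110). The order ILC2, NK, T and proximal tubule held in both libraries with each step outside counting error, but the last step in the old library, 0.08 (0.02–0.14) log2, rested on 61 T cells with ILC2 markers described further on, without which T cells had 98.2 CPM. In proximal tubule cells *Rora* had 77.4 CPM (75.7–79.1) and 100.5 CPM (97.9–103), and 55.9% and 61.2% of these deep cells carried a UMI. The log2 ratio over T cells was 2.28 (2.19–2.36) young and 3.70 (3.62–3.77) old.

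*Gfi1*, a zinc finger repressor, was thinly counted and was highest in ILC2s. It had 359 UMIs in young and 88 in old ILC2s, or 40.9 CPM (36.8–45.4) and 48.9 CPM (39.2–60.2). NK cells followed with 17.7 (10.5–28.0) and 24.6 (17.5–33.6) CPM and T cells with 12.2 (9.37–15.7) and 15.6 (14.3–17.1) CPM, which could not be ordered in the young library. No *Gfi1* UMI was found in young myeloid cells, which allows up to 1.21 CPM at the limit of 3 counts. The log2 ratio of ILC2s over T cells was 1.74 (1.35–2.16) and 1.64 (1.30–1.97).

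*Id2* was high in ILC2s and NK cells alike, and it was also well detected outside lymphocytes. ILC2s had 1884 CPM (1855–1913) young and 1892 CPM (1829–1957) old, and NK cells 1746 (1666–1829) and 1871 (1805–1940). ILC2s exceeded NK cells by 0.11 (0.04–0.18) log2 in the young library, and in the old library the interval of 0.02 (-0.06 to 0.09) held 0. Proximal tubule cells (1135 and 1099 CPM), myeloid cells (834 and 1442 CPM) and T cells (823 and 815 CPM) came between NK and B cells (371 and 277 CPM). Within the myeloid class, macrophages and monocytes had 875 CPM (835–917) young and 1506 CPM (1471–1543) old.

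Of the factors of early ILC precursors, *Tox* was not highest in ILC2s in either library. *Zbtb16* was highest of the 6 classes in ILC2s of the old library only. There NK cells had 13.2 CPM (8.20–20.2) and could not be told from ILC2s. *Tox* stood at 55.4 CPM (50.6–60.5) in young and 47.8 CPM (38.2–59.0) in old ILC2s, close to NK cells with 55.1 (41.6–71.5) and 61.2 (49.6–74.6). Young T cells had 61.3 CPM (54.7–68.5), which could not be ordered against ILC2s, and old T cells had 162 CPM (158–167). *Zbtb16* was counted only 59 times in young and 30 times in old ILC2s, or 6.72 CPM (5.12–8.67) and 16.7 CPM (11.2–23.8). The share of young ILC2s with a UMI, 3.69%, was close to the 3.49% of the deeper proximal tubule cells, although per total UMIs ILC2s were above the 2.40 CPM (2.12–2.71) of that class. Of T cells, those of the young library had 12.03 CPM (9.20–15.5) and those of the old library 1.69 CPM (1.26–2.22). Higher *Zbtb16* levels were seen in neutrophils, with 32.2 CPM (17.6–54.1) and 38.3 CPM (22.7–60.6) from 14 and 18 UMIs. Young T cells with a *Trdc* UMI and none of *Cd4*, *Cd8a* or *Cd8b1* had 28.7 CPM (16.7–46.0) from 75 cells.

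*Bcl11b* and *Ets1* were shared between ILC2s and T cells. *Bcl11b*, which T cells need to commit to their lineage, reached 245 CPM (235–255) in young and 244 CPM (222–268) in old ILC2s. T cells had 232 (219–246) and 371 (364–378) CPM and NK cells 37.4 (26.4–51.3) and 18.3 (12.3–26.3) CPM, so *Bcl11b* set both classes apart from NK cells. The ILC2 over T log2 ratio was 0.08 (-0.03 to 0.18) young and -0.61 (-0.75 to -0.47) old. *Ets1* had 473 CPM (459–488) and 520 CPM (488–555) in ILC2s, 476 (457–495) and 640 (631–649) in T cells, and 476 (434–520) and 556 (520–594) in NK cells. In the young library these 3 classes could not be ordered, and B cells were above them with 618 CPM (584–652). In proximal tubule cells *Ets1* was near 0, with 0.851 (0.687–1.04) and 1.45 (1.15–1.80) CPM.

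*Zbtb7a* was the most evenly spread of the 10, with 64.6 to 128 CPM over the 6 classes in the young and 69.1 to 145 CPM in the old library. ILC2s had 121.5 CPM (114–129) and 113 CPM (97.8–129), and in the young library the first 5 classes from NK down to T cells could not be ordered between neighbours. *Bach2* had the lowest ILC2 over T ratio of the 10 in both libraries. It had 44 UMIs in young and 13 in old ILC2s, or 5.02 CPM (3.64–6.73) and 7.22 CPM (3.84–12.3). B cells had 145 CPM (129–163) and 80.0 CPM (68.5–93.0), T cells 20.1 (16.4–24.4) and 33.6 (31.6–35.7), and proximal tubule cells 6.35 and 6.37. ILC2s could not be ordered against proximal tubule cells in either library.

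**Figure D1:**
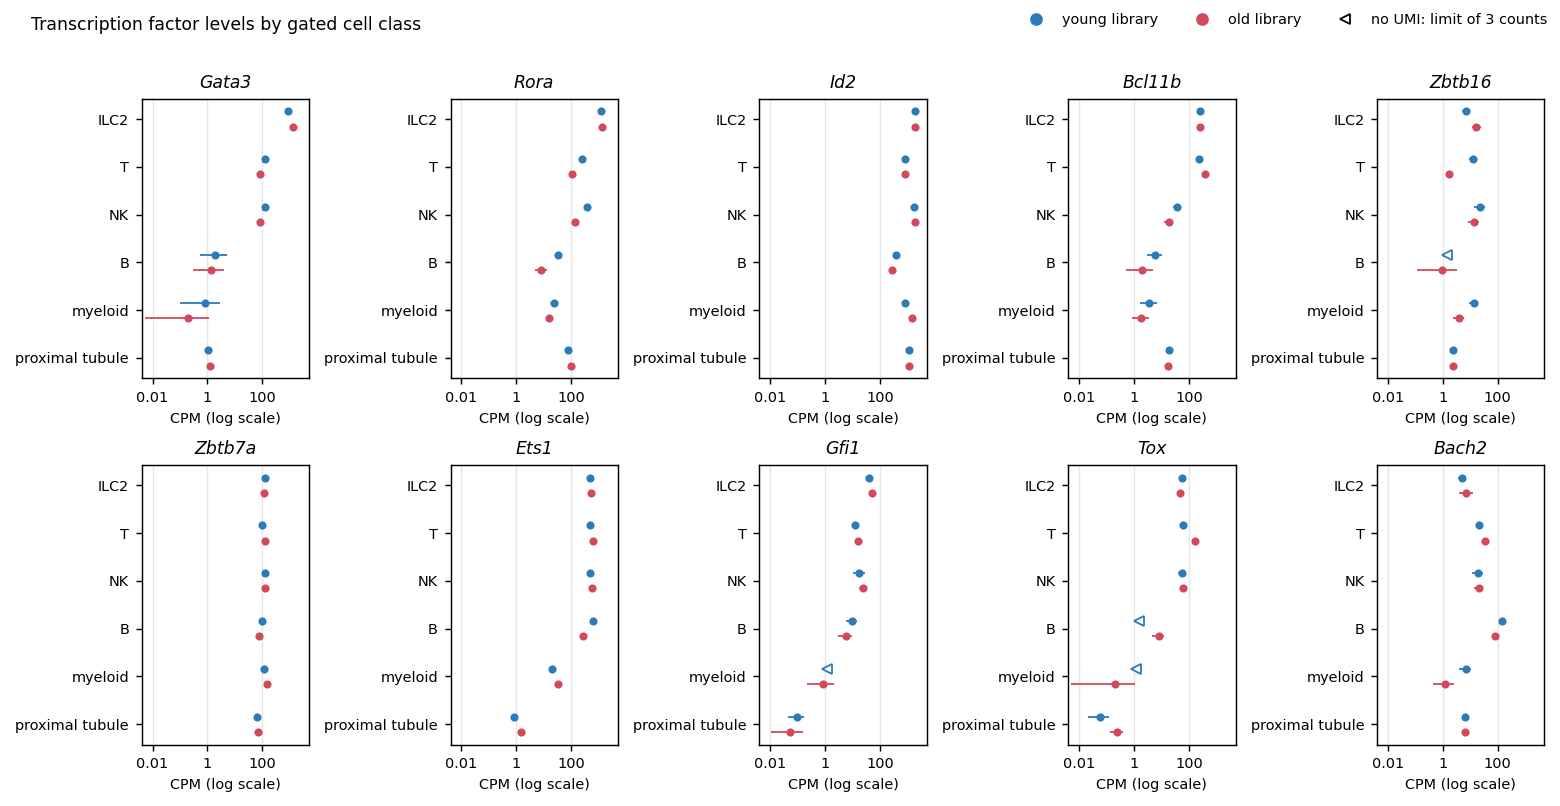
CPM of each factor (x axis, log scale, the same range in every panel) in 6 gated classes (y axis) of the young (blue) and old (red) library; bars are exact Poisson 95% intervals and open triangles mark the limit of 3 counts for a class with no UMI. *Gata3*, *Rora* and *Gfi1* have their highest point in ILC2s of both libraries, *Bach2* in B cells, and *Zbtb7a* stays between 64.6 and 145 CPM in all classes.

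Counted together, 5 of the 10 factors were highest in ILC2s among the 6 classes in the young library (*Gata3*, *Rora*, *Id2*, *Bcl11b* and *Gfi1*), of which *Bcl11b* could not be told from T cells. In the old library 5 were highest in ILC2s (*Gata3*, *Rora*, *Id2*, *Zbtb16* and *Gfi1*), of which *Id2* and *Zbtb16* could not be told from NK cells. The share of all genes highest in ILC2s was not computed, so these counts cannot be set against a background. In the young library 4 of the 10 were at least 2-fold higher in ILC2s than in T cells (*Gata3*, *Rora*, *Gfi1* and *Id2*) and 1 at least 2-fold lower (*Bach2*). Among the 9263 genes with at least 100 UMIs over both classes, 5.72% were past 2-fold upward and 4.89% downward. In the old library 5 were at least 2-fold higher, with *Zbtb16* in addition, and 2 lower, *Bach2* with a log2 ratio of -2.22 (-3.13 to -1.44) and *Tox* with -1.77 (-2.09 to -1.46). The shares among 10934 genes were 6.13% and 14.8%, and *Zbtb16* was under the minimum of 100 UMIs that those genes met. The median log2 ratio of all these genes was -0.01 young and -0.13 old, beside 0.21 and 0.52 for the members that met the minimum, 10 and 9 in number.

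**Figure D2:**
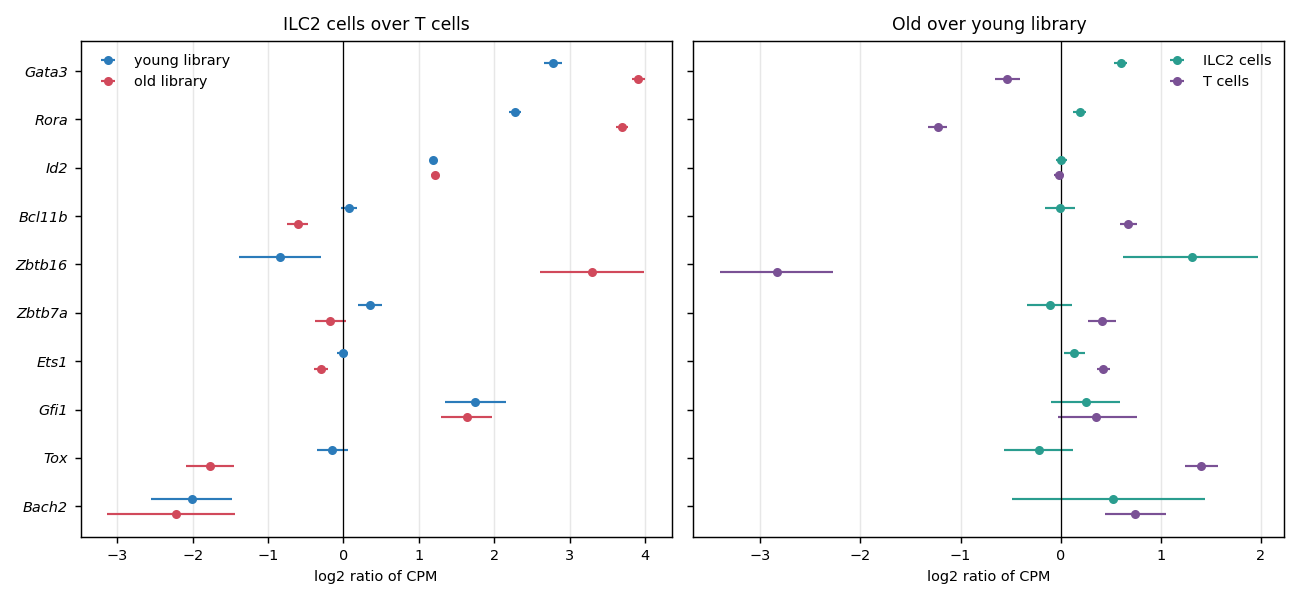
Log2 ratio of CPM (x axis) of each factor (y axis), ILC2s over T cells in each library on the left, and old over young in ILC2s and in T cells on the right; bars are exact binomial 95% intervals. *Gata3*, *Rora*, *Id2* and *Gfi1* lie right of 1 on the left side in both libraries, and on the right side *Gata3*, *Rora* and *Zbtb16* lie on opposite sides of 0 in ILC2s and T cells.

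To see whether the factors met in the same cells, each cell was thinned to 1000 UMIs. The median number of the 10 factors with a UMI was then 3 in ILC2s of both libraries, 2 in T and NK cells and 1 in B, myeloid and proximal tubule cells. At least 3 factors were seen in 62.7% of young and 66.8% of old ILC2s, against 25.3% and 24.4% of T cells, and none in 1.62% of young ILC2s against 15.0% of young T cells. A *Gata3* UMI remained in 59.6% of young and 74.0% of old ILC2s and a *Rora* UMI in 67.8% and 69.2%. *Gata3* and *Rora* were found together in 40.8% of young ILC2s, where the product of their shares was 40.4%, and in 52.4% of old ILC2s, where it was 51.2%. Over the 45 pairs of factors the share of ILC2s with both differed from the product by -0.88 to 1.62 percentage points in the young and by -1.62 to 2.18 points in the old library. For factors found in few cells this difference is bound to be near 0, so it says little of such pairs. *Ets1* was found in 40.6% of young ILC2s with and 33.2% of those without a *Rora* UMI, and in 43.6% and 33.3% of the old.

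**Figure D3:**
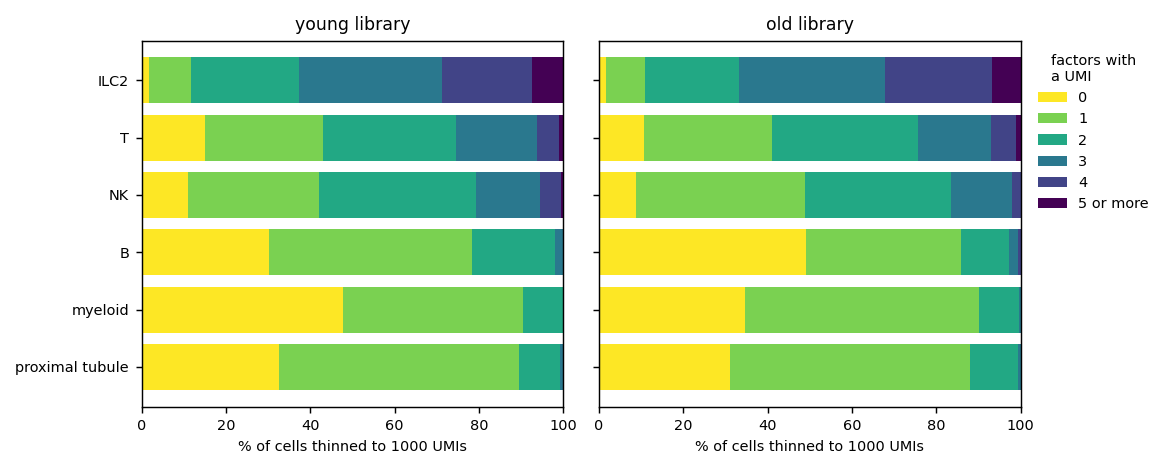
Share of cells (x axis, %) with UMIs of 0, 1, 2, 3, 4 or at least 5 of the 10 factors after thinning to 1000 UMIs, by class (y axis), young library left and old library right. ILC2s have the largest dark part of each bar, with at least 3 factors in 62.7% of young and 66.8% of old cells.

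Neither *Gata3* nor *Rora* was part of the ILC2 gate, so their levels could be read along it. Among cells with a UMI of the leukocyte gene *Ptprc*, none of the CD3 genes or *Ncr1* and in no other gate, *Gata3* had 3.20 CPM at 0 ILC2 markers, 126 at 1, 699 at 2 and 722 at 3 in the young library, and 5.95, 100, 601 and 1289 CPM in the old. *Rora* had 74.4, 364, 1045 and 1087 CPM young and 70.2, 207, 984 and 1075 CPM old. In the young library, cells with 2 markers, just outside the gate (107 cells), and cells with 3, just inside it (225 cells), thus had close levels of both factors. *Zbtb7a* moved less, from 82.4 CPM (72.7–93.1) at 0 markers to 111 CPM (93.9–131) at 3 in the young library. *Zbtb16* peaked outside the gate in the old library, with 311 CPM (226–418) from 44 UMIs in 22 cells at 2 markers. At 3 markers it had 19.0 CPM (5.18–48.7) there. How many of the 22 cells held these UMIs was not counted. In the young library it had 21.7 CPM (11.6–37.2) at 2 and 8.38 CPM (4.18–15.0) at 3 markers. The cells at 0 markers (211 young, 304 old) were deeper, with medians of 12955 and 9992.5 UMIs. In the young ones *Id2* had 1105 CPM and *Bcl11b* 17.3 CPM, beside 1135 and 18.6 CPM in proximal tubule cells. The proximal tubule gate excluded cells with a *Ptprc* UMI, so the step from 0 markers need not lie within leukocytes. Which cells these were was not tested.

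**Figure D4:**
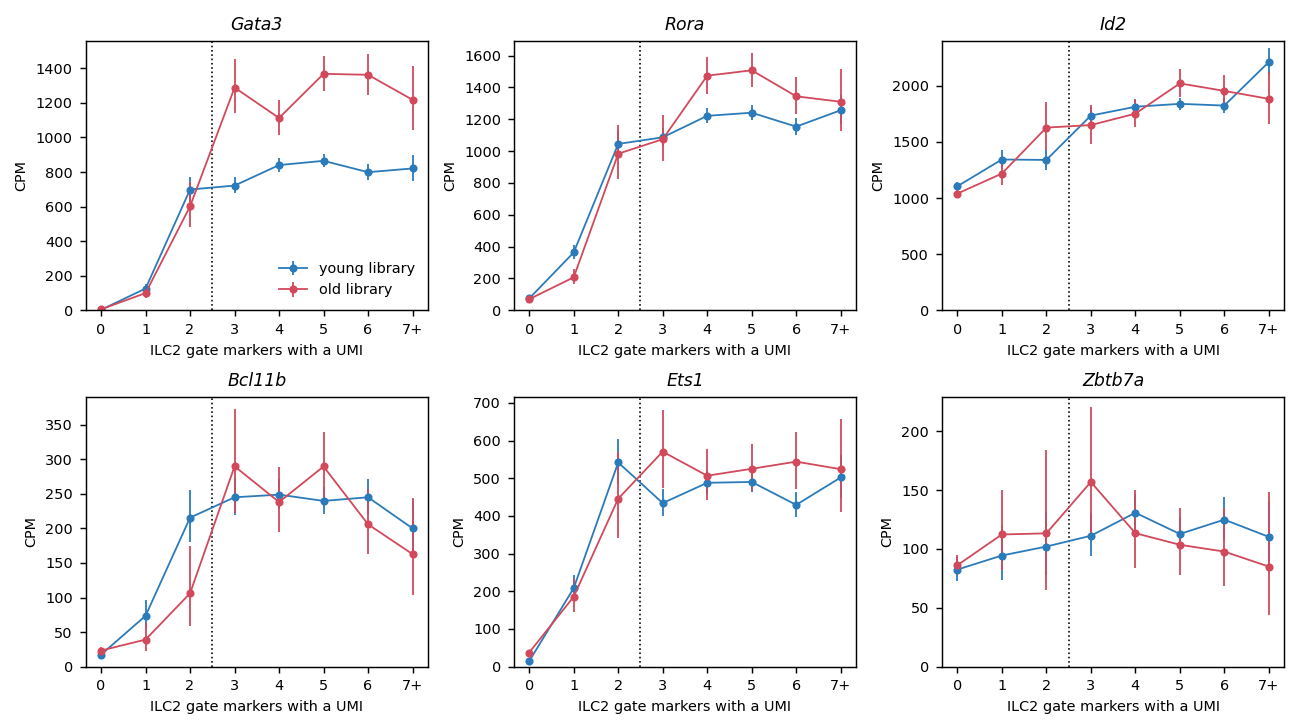
CPM (y axis, from 0) of 6 factors against the number of the 8 ILC2 gate markers with a UMI (x axis, 7+ standing for 7 or 8), in the young (blue) and old (red) library; bars are exact Poisson 95% intervals and the dotted line is the gate at 3 markers. In the young library *Gata3* climbs from 3.20 CPM at 0 to 699 CPM at 2 markers and stays between 722 and 865 CPM from 3 on, while in the old library it goes on from 601 CPM at 2 to 1289 CPM at 3 markers. Cells at 0 markers are deeper than the others and may include tubule cells with a *Ptprc* UMI.

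Among ILC2s, cells that carried UMIs of the type 2 cytokine genes *Il5* or *Il13* were compared with the rest (389 and 911 young cells, 52 and 245 old cells). *Gata3* differed by 0.10 (0.03–0.17) log2 in the young library, with 883 CPM in cytokine-positive and 823 CPM in the other cells, and by 0.03 (-0.11 to 0.18) in the old. *Id2* was higher in the cytokine-positive cells of both libraries, by 0.11 (0.06–0.16) and 0.20 (0.08–0.32). In the young library *Tox* was higher by 0.45 (0.18–0.72), with 67.2 against 49.1 CPM, and *Bach2* was lower, with 8 UMIs against 36 and a log2 ratio of -1.25 (-2.57 to -0.12). Both intervals held 0 in the old library. Cytokine-positive cells were deeper (median 5983 against 5143 UMIs in the young library), and *Il5* and *Il13* are themselves gate genes.

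The cells with Y-linked UMIs and those with *Xist* UMIs were also compared. In ILC2s *Id2* differed between these sets, with 2136 CPM in 687 young cells with Y-linked and no *Xist* UMIs and 1350 CPM in 291 young cells with *Xist* and no Y-linked UMIs. In the old library the levels were 2131 CPM (162 cells) and 1161 CPM (76 cells). The log2 ratio was 0.66 (0.60–0.72) young and 0.88 (0.74–1.02) old, against 0.14 in T cells of both libraries. *Gata3* was close in the young sets (873 and 913 CPM), while the old sets had 1412 and 1154 CPM, a log2 ratio of 0.29 (0.14–0.44). Differences between sexes and between single mice cannot be told apart here.

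The study examined the integrin α4β7 on kidney ILC2s, and *Zbtb7a* was set beside the integrin genes *Itga4* and *Itgb7* and the growth factor gene *Areg*. It proposes a path from Toll-like receptor 7 through LRF to this integrin. Its evidence included LRF and integrin β7 protein in imiquimod-treated mice, and public single-cell data in which *Zbtb7a*, *Itga4* and *Itgb7* rose with interleukin-33. In lung ILC2s given a Toll-like receptor 7 agonist, RNA of *Zbtb7a*, *Itga4*, *Itgb7* and *Areg* fell. By flow cytometry the study also found a falling share of kidney ILC2s with integrin α4β7 as MRL-lpr disease progressed. RNA of MRL-lpr kidney ILC2s is read here, which is another measure than protein. In young and old ILC2s *Itga4* had 341 and 362 CPM, *Itgb7* 207 and 276 CPM and *Areg* 1078 and 1943 CPM. *Zbtb7a* was detected in 656 young and 129 old ILC2s. Per total UMIs, *Itgb7* had 182 CPM in the young cells with *Zbtb7a* and 242 CPM in those without, a log2 ratio of -0.41 (-0.54 to -0.27). *Itga4* and *Areg* had ratios of -0.28 (-0.39 to -0.18) and -0.58 (-0.63 to -0.52). In the old library the intervals of *Itgb7*, -0.23 (-0.50 to 0.03), and *Itga4*, -0.09 (-0.32 to 0.13), held 0. *Areg* was lower there with -0.41 (-0.50 to -0.31). Cells with a *Zbtb7a* UMI were deeper (median 5806 against 4921 UMIs), and in the young library 7 of the other 9 factors, all but *Tox* and *Bach2*, were also lower in them with intervals below 0. The share of all genes lower in these cells was not computed, so the count cannot be read as particular to the factors. After thinning (145 young and 29 old cells with a *Zbtb7a* UMI), *Itgb7* was found in 28.3% (21.1–36.3%) of young ILC2s with and 19.7% (17.4–22.1%) of those without a *Zbtb7a* UMI, and in 24.1% (10.3–43.5%) and 26.2% (21.0–32.0%) of the old. *Itga4* had shares of 26.9% and 27.3% young and 27.6% and 30.4% old, and *Areg* 39.3% and 39.1% young and 62.1% and 50.6% old. The thinned intervals overlapped for all 3 genes in both libraries. The shares and the CPM are different measures over differently split cells, so the part of depth in the change of sign for *Itgb7* in the young library was not tested.

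Between the libraries, *Gata3* was the factor with the clearest difference in ILC2s. It was higher in the old library by 0.60 (0.53–0.67) log2, just past the 1.5-fold used as the mark, and was higher in both sex sets, by 0.69 (0.61–0.78) in cells with Y-linked and 0.34 (0.20–0.48) in cells with *Xist* UMIs. *Rora* differed by 0.19 (0.13–0.25) and *Ets1* by 0.14 (0.03–0.24), both under the mark. *Id2*, *Bcl11b*, *Zbtb7a*, *Gfi1*, *Tox* and *Bach2* had intervals that held 0, from 0.01 (-0.05 to 0.06) for *Id2* to 0.53 (-0.49 to 1.44) for *Bach2*, whose counts were low. *Zbtb16* was past the mark with 1.31 (0.62–1.97), from 59 young and 30 old UMIs, but the sums over thinned cells gave -0.55. Past 1.5-fold stood 2 of the 10 factors upward and 0 downward, beside 5.29% and 13.5% of the 8379 genes with at least 100 UMIs over the ILC2s of both libraries. *Zbtb16* and *Bach2* were under that minimum. The median log2 ratio of these genes was -0.06, and that of the 8 members that met the minimum was 0.16.

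In T cells more of the factors were past 1.5-fold between the libraries, and *Gata3*, *Rora* and *Zbtb16* had the opposite sign from ILC2s. *Tox* was higher in the old library by 1.40 (1.24–1.57) log2, *Bcl11b* by 0.68 (0.59–0.76), *Bach2* by 0.74 (0.45–1.05), *Ets1* by 0.43 (0.37–0.49) and *Zbtb7a* by 0.41 (0.28–0.55). *Rora* was lower with -1.23 (-1.32 to -1.13), *Gata3* with -0.53 (-0.66 to -0.40) and *Zbtb16* with -2.83 (-3.40 to -2.27), while *Id2* at -0.02 (-0.06 to 0.03) and *Gfi1* at 0.36 (-0.03 to 0.76) had intervals that held 0. Of all 11154 genes with at least 100 UMIs, 12.2% were past 1.5-fold upward and 13.5% downward. *Tox*, *Bcl11b* and *Bach2* were past it upward and *Rora* and *Zbtb16* downward, so 5 of the 10 factors lay beyond 1.5-fold in T cells.

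These directions were not the same in each kind of T cell. T cells without coreceptors accumulate in mice without functional Fas. The share of T cells with no UMI of *Cd4*, *Cd8a* or *Cd8b1* was not higher in the old library. Such coreceptor-negative cells numbered 306 of 659 young and 1744 of 4309 old T cells. In these *Gata3* had 178 CPM (161–196) young and 51.5 CPM (47.2–56.1) old, while CD4 T cells had 102 (84.6–121) and 154 (146–163) CPM and CD8 T cells 58.7 (47.1–72.4) and 54.2 (49.8–59.0) CPM. The old over young log2 ratio of *Gata3* was -1.79 (-1.98 to -1.60) in the coreceptor-negative kind, 0.60 (0.34–0.88) in CD4 T cells and -0.12 (-0.44 to 0.23) in CD8 T cells. Cells with at least 3 ILC2 markers were 49 of the 306 young and 19 of the 1744 old coreceptor-negative cells, and without them it had 79.2 CPM (66.8–93.3) young and 42.8 CPM (38.8–47.0) old, a ratio of -0.89 (-1.16 to -0.61). *Bach2* had 65.2 CPM (60.4–70.4) in old coreceptor-negative T cells, against 16.5 (11.6–22.8) in the young ones and 19.3 (16.5–22.5) and 16.6 (14.2–19.3) in old CD4 and CD8 T cells. Among old T cells *Ets1* was also highest there, with 796 CPM (778–813), while *Id2* was lowest, with 543 CPM (528–557). *Tox* was higher in the old library in all 3 kinds, by 1.30 (0.99–1.62) in CD4, 1.43 (1.11–1.76) in CD8 and 1.54 (1.27–1.83) in coreceptor-negative T cells. Without cells carrying at least 3 ILC2 markers, the *Rora* ratio in CD4 T cells was -0.11 (-0.33 to 0.13). It was -0.63 (-0.85 to -0.39) in CD8 and -1.85 (-2.02 to -1.68) in coreceptor-negative T cells. For *Id2* it was then 0.81 (0.70–0.93) in CD4, 0.29 (0.19–0.38) in CD8 and -0.70 (-0.78 to -0.61) in coreceptor-negative T cells. At 3′ depths of this kind a cell without a coreceptor UMI may still carry the coreceptor. Cells with a *Trdc* UMI were counted within the coreceptor-negative kind only, and numbered 75 of its 306 young and 70 of its 1744 old cells. The old over young ratios of that kind may therefore compare different mixtures, and the part of this in the ratios was not tested.

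**Figure D5:**
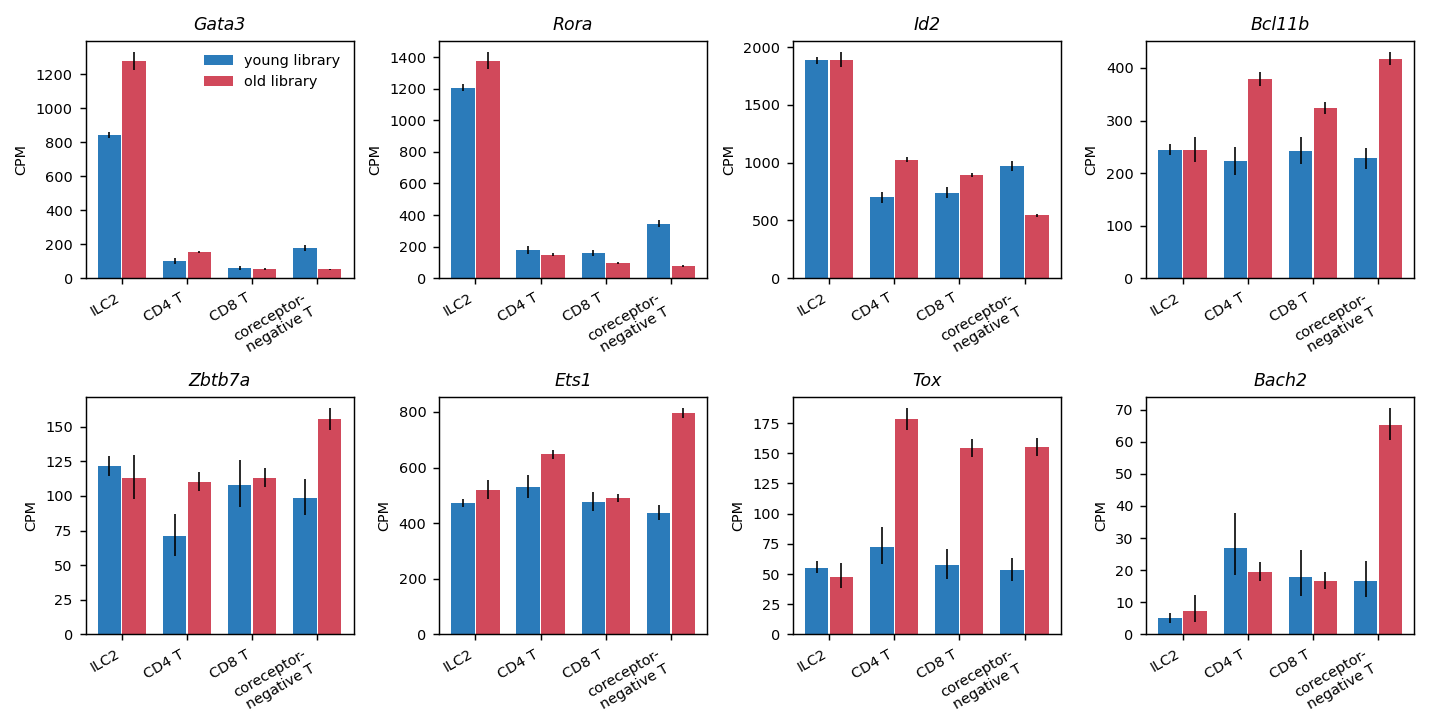
CPM (y axis, from 0) of 8 factors in ILC2s and in T cells with UMIs of *Cd4*, of *Cd8a* or *Cd8b1*, or of neither (x axis), in the young (blue) and old (red) library; bars are sums over cells with exact Poisson 95% intervals. *Tox* is higher in the old library in every kind of T cell, *Bach2* and *Ets1* are highest in old coreceptor-negative T cells, and *Gata3* and *Rora* of ILC2s are above every T cell bar.

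The CD3 gate also held cells with ILC2 genes. At least 3 of the 8 ILC2 markers were found in 65 young T cells (9.86%) and 61 old ones (1.42%), and 49 of the 65 were coreceptor-negative. The young ones had fewer CD3 UMIs than the other young T cells (median 7 against 13), *Trac* UMIs in 43.1% against 76.9%, and doublet calls in 18.5% against 6.06%. *Gata3* had 512 CPM (456–573) in them and 70.6 CPM (63.0–78.9) in the other young T cells, and *Rora* had 715 (649–786) and 187 (174–200) CPM. In the old library the values were 487 (435–542) and 75.5 (72.4–78.7) CPM for *Gata3* and 454 (405–508) and 98.2 (94.7–102) CPM for *Rora*. Without these cells the old over young ratio of *Gata3* in T cells was 0.10 (-0.07 to 0.27) in place of -0.53, whereas *Rora* stayed lower with -0.93 (-1.04 to -0.81), *Zbtb16* with -2.92 (-3.51 to -2.34), and *Tox* stayed higher with 1.49 (1.31–1.68). The ILC2 over T log2 ratio of *Gata3* was then 3.58 in the young and 4.08 in the old library. This selection was chosen after the data were seen.

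Some of the factors also marked cells outside the immune system. In a gate that joins distal tubule and collecting duct cells, *Gata3* reached 217 CPM (161–286) among 19 young and 185 CPM (164–207) among 79 old cells. Young proximal tubule cells had 1.04 CPM. Which segment the cells with *Gata3* came from was not examined. *Ets1*, known from blood vessels, had 397 CPM (363–432) in 250 young endothelial cells. *Bcl11b* was found in 21.9% and 21.3% of proximal tubule cells at 18.6 and 17.8 CPM, levels whose old over young log2 ratio was -0.07 (-0.18 to 0.04). Plasmacytoid dendritic cells had the lowest *Id2* of the young gates, with 323 CPM (286–363), beside B cells with 371 (345–398).

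Other transcription factors were read from a list of 40 that covers E proteins and their inhibitors, early ILC factors, factors of other lymphocyte lineages, relatives of the 10 and ILC2 effector factors. With at least 100 UMIs over both classes, 32 could be compared in the young library, of which 3 were at least 2-fold higher and 3 at least 2-fold lower in ILC2s than in T cells, with a median log2 ratio of -0.01. In the old library 4 of 37 were higher and 12 lower, with a median of -0.45. *Pparg*, a nuclear receptor of ILC2s and fat cells, had a log2 ratio of 2.48 (2.14–2.83) young and 4.28 (3.94–4.63) old. *Nfkb1* had 2.62 (2.52–2.74) and 2.59 (2.51–2.67) and *Ikzf3* 1.06 (0.92–1.21) and 1.42 (1.27–1.56). At the other end *Tbx21*, the factor of type 1 lymphocytes, had 3 UMIs in the ILC2s of each library and ratios of -6.12 (-8.42 to -4.54) and -4.19 (-6.47 to -2.63). The T cell factors *Tcf7* (-4.93 and -4.85) and *Lef1* (-2.98 and -1.92) followed by the mean of both libraries. This order covers factors with a ratio and at least 100 UMIs in each library. In the old library alone *Tcf7* was below *Tbx21*, as was *Foxp3* with -4.45 (-9.76 to -1.97). *Eomes* had the lowest ratio there, -7.14 (-9.42 to -5.59) from 3 UMIs in ILC2s. In the young library it had 0 UMIs in ILC2s and 99 in T cells. Between the libraries 29 of the 40 could be compared in ILC2s, with 2 past 1.5-fold upward and 3 downward. *Prdm1* was higher in the old library by 1.10 (0.54–1.65), and *Stat5a* by 0.60, with an interval that held 0 (-0.04 to 1.19). *Id3* was lower (-1.13, -1.87 to -0.47).

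Over 16 points, 8 classes with at least 50 cells in each of the 2 libraries, the genes whose log2(CPM + 1) followed each factor most closely were listed from 11714 genes. For *Gata3* *Xkr6* is given (Pearson r = 0.975), for *Rora* *Pmm2* (0.939) and *Tusc3* (0.938), and for *Gfi1* the cytokine receptor gene *Il27ra* (0.965) and *Ubxn11* (0.944). *Ets1* was closest to *Fcho1* (0.987) and *Cyth1* (0.969), *Tox* to *Sh2d2a* (0.966) and *Cd96* (0.963), and *Bcl11b* to *Aak1* (0.941) and *Cish* (0.938). *Id2* was closest to *Vti1b* (0.867) and *Nabp1* (0.845), *Zbtb16* to *4833418N02Rik* (0.886) and *Dgat1* (0.883), *Zbtb7a* to *Sf3b5* (0.914) and *Adam10* (0.914), and *Bach2* to *Zfp318* (0.916) and *Rrm2b* (0.897). Among the factors themselves *Gata3* had r = 0.873 with *Tox*, 0.870 with *Gfi1*, 0.863 with *Bcl11b* and 0.858 with *Rora*, and 0.145 with *Bach2*. The points share libraries and gates, so these values are descriptions.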

How the data were processed

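The deposited values are raw UMI counts per gene and barcode, which the authors made with Cell Ranger 3 on mm10 per the labels and their methods, 1 matrix per library, unnormalized. The tools were Scanpy 1.11.5 (for Scrublet), pandas 2.3.3, SciPy 1.17.1, NumPy 2.4.6 and Matplotlib 3.10.9 under Python 3.11.15. The young library had 15076 barcodes and 156787812 UMIs, the old library 12622 and 126334256. After the cell filter, classes were gated by fixed markers, not clustered, so the names may differ from those of the study. T cells were split by *Cd4*, *Cd8a*, *Cd8b1* and *Trdc* UMIs, and myeloid cells join macrophage or monocyte and neutrophil gates. Scrublet called 332 young and 270 old cells doublets (67 and 6 of the ILC2s), which were kept. Counts were summed per class. CPM has exact Poisson, shares exact Clopper-Pearson and log2 ratios exact binomial intervals. Thinning to 1000 UMIs used a fixed seed, 7, and left out shallower cells. The ratio step was tested on simulated data. No p-value was computed.

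The 10 factors and all lists were chosen with earlier results of these data known. The named genes were all 10 members, the 2 genes most correlated with each, the 3 highest and 3 lowest of the other factors by ILC2 over T ratio, the 2 with the largest ratio between libraries in each direction, and *Itga4*, *Itgb7* and *Areg*. Of the genes this rule takes, 2 are not reported here. The alternatives were 3 other ILC2 gates, 1 CD3 UMI allowed, 10% mitochondrial UMIs, 500 genes, doublets removed, the mean of each cell's CPM, a total without abundant genes, thinned sums, the deepest 5% of cells left out, cells with only Y-linked or only *Xist* UMIs, and other thinning depths. Leaving out T cells with ILC2 markers or cells with a tubule marker UMI was added after the data were seen.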

Additional observations from a re-analysis of the deposited data

Results flagged for a closer look

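3 factors had opposite signs of the old over young log2 ratio in ILC2s and in T cells, each with an interval on that side of 0. The ratios were 0.60 in ILC2s and -0.53 in T cells for *Gata3*, 0.19 and -1.23 for *Rora*, and 1.31 and -2.83 for *Zbtb16*. With 1 library per age the difference between the ratios was not tested. Without the T cells that carried at least 3 ILC2 markers, *Gata3* in T cells had a ratio of 0.10, whose interval held 0, and *Rora* and *Zbtb16* kept their sign with -0.93 and -2.92. By kind, *Rora* then had -0.11 (-0.33 to 0.13) in CD4, -0.63 in CD8 and -1.85 in coreceptor-negative T cells. In cells with Y-linked and no *Xist* UMIs the T cell ratio of *Gata3* was -0.08 (-0.28 to 0.11), and in cells with *Xist* and no Y-linked UMIs it was -1.45 (-1.69 to -1.21).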

How the results depend on the processing

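No paired analysis was possible because there was 1 library per age. The 2 factors at least 1.5-fold higher in old ILC2s became 1 with a gate of at least 2 ILC2 markers, with the mean of each cell's CPM and with the deepest 5% of cells left out, and 0 with sums of thinned cells. The 1 factor at least 2-fold lower in young ILC2s than T cells became 2 with the gate of receptor genes alone, the mean of each cell's CPM, the deepest 5% left out and cells with only *Xist* UMIs, the last of which also gave 2 in place of 4 higher. The 5 factors highest in old ILC2s became 3 with thinned sums and in cells with only *Xist* UMIs, and the 5 of the young library became 3 without cells that held a tubule marker UMI. Without thinning the median number of factors per ILC2 was 6 in both libraries. Signs turned for *Zbtb16* in ILC2s between libraries with thinned sums (-0.55), for *Rora* in ILC2s in cells with only *Xist* UMIs (-0.064), for *Gata3* in T cells without cells carrying 3 ILC2 markers (0.10), and for *Ets1* in ILC2s without cells holding a tubule marker UMI (-0.073). The causes were not tested. Of 300 alternative values of the ILC2 over T ratio, 241 stayed within the counting interval of the reported value, 59 left it and 0 of those with an interval on 1 side of 0 changed sign. For the ratio between libraries 125 of 150 stayed within it in ILC2s and 115 of 150 in T cells. The counts of *Zbtb16* and *Bach2* in ILC2s limit what can be said of them.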
